A study of Mus musculus with 4 samples.

Results

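The 9 genes described here move glucose and lactate between the cells of the retina, and they were compared in single nuclei of the mouse eye. They were chosen by symbol among the 31053 gene rows of the count tables: Slc2a1 and Slc2a3 (glucose transporters), Slc16a1, Slc16a3, Slc16a7 and Slc16a8 (monocarboxylate carriers), Bsg (the carriers' partner protein), and Ldha and Ldhb (the subunits of lactate dehydrogenase). Each symbol matched 1 row. In build GRCm38 (GENCODE M21) Slc2a1 lies at chr4:119108711-119137983, Slc2a3 at chr6:122727809-122801640, Slc16a1 at chr3:104638668-104658462, Slc16a3 at chr11:120948480-120960868 and Slc16a7 at chr10:125219270-125389465. Slc16a8 lies at chr15:79251014-79254761, Bsg at chr10:79704491-79711969, Ldha at chr7:46841475-46855627 and Ldhb at chr6:142490249-142507957. Across the nuclei kept, the genes collected between 1135 UMIs (unique molecular identifiers, each a captured RNA molecule) for Slc16a3 and 31816 UMIs for Bsg.

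There were 4 libraries of nuclear RNA, made with the 10x droplet method from left eyes: donors 1 and 2 aged 5 months and donors 1 and 2 aged 2.5 months. The labels call the 2.5-month mice wild type, give no genotype for the 5-month mice, and name no strain, treatment or purpose of the age comparison. The libraries held between 7404 and 9963 barcodes and between 19608067 and 36320257 UMIs, and pairs of libraries shared between 0.0808% and 0.337% of their barcodes. The counts were made with Cell Ranger 4.0.0 at 5 months and 7.1.0 at 2.5 months, so software version and age cannot be told apart. Of 32326 barcodes, 30839 were kept. Clusters formed without the 9 genes were named from marker genes, so that "rods" below means nuclei that are rod-like by their markers, and likewise for each class. There were 9029 rods, 3221 cones, 3290 Müller glia, 275 pigment epithelial nuclei, 2656 bipolar, 323 horizontal, 4583 amacrine and 1749 ganglion nuclei, but only 104 endothelial nuclei. The dissected tissue also held smooth muscle, fibroblasts, melanocytes and immune nuclei, and 2749 nuclei stayed unnamed. A further 57 astrocytes and 66 striated muscle nuclei were named but were too few per library to enter the tests.

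Photoreceptors break down most of their glucose to lactate even with oxygen present. Their glucose comes from the choroidal vessels through the pigment epithelium, which takes it up by Slc2a1 (GLUT1), and lactate leaves the photoreceptors for the glia and the pigment epithelium through proton-coupled carriers. Slc16a1 (MCT1) is a broadly used carrier, Slc16a3 (MCT4) serves lactate export from glycolytic cells, Slc16a7 (MCT2) takes up monocarboxylates at low concentrations, and Slc16a8 (MCT3) sits on the choroidal face of the pigment epithelium. Bsg (basigin) brings MCT1, MCT3 and MCT4 to the membrane. Ldha favours the step from pyruvate to lactate and Ldhb the reverse. Slc2a3 (GLUT3) is the high-affinity glucose transporter of neurons.

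The start regions of 4 of the genes are shown, which differed from each other in where they were high. Ldha was high in photoreceptors, Ldhb in no single class, Slc16a1 in photoreceptors, glia and pigment epithelium, and Slc16a8 in pigment epithelium. Each runs 5′ to 3′ from 250 bases before to 50 bases after the annotated start (RefSeq, build GRCm38.p6). Capitals mark ACGTG on either strand, a form of the core letters that hypoxia-inducible factors bind. Other forms of the core, such as GCGTG, were not marked or counted. A CACGTG, which reads the same on both strands, holds 1 match on each.
Ldha, chr7:46845554-46845853, plus strand: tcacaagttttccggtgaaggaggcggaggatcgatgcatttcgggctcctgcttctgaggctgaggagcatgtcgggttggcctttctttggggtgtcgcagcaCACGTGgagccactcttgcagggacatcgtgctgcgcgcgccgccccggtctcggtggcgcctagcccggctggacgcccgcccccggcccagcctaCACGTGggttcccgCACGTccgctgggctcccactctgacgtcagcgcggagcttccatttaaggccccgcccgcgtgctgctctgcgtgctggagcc
Ldhb, chr6:142507908-142508207, minus strand: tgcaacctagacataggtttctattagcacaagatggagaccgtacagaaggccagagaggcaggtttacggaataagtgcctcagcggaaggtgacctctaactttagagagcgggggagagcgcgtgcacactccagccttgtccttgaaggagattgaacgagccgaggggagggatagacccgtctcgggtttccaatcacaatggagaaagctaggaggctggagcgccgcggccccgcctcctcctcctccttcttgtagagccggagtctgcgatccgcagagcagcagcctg
Slc16a1, chr3:104638414-104638713, plus strand: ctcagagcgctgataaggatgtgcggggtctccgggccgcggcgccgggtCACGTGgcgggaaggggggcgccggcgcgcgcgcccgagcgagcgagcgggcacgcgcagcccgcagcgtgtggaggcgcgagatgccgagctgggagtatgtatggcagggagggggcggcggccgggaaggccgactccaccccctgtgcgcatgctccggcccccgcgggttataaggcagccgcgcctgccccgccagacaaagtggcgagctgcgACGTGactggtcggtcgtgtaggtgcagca
Slc16a8, chr15:79254699-79254998, minus strand: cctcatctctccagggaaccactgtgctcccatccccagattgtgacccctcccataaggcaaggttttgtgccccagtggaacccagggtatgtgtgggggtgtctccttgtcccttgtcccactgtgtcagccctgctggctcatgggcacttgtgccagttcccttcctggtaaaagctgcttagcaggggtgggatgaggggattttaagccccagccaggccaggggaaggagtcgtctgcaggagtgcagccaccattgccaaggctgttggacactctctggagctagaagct
The Ldha region held 5 matches and the Slc16a1 region 3, whereas the Ldhb and Slc16a8 regions held 0. Of all 32851 promoters in the same table, 19.6% held at least 1. A second annotated Ldha start, at chr7:46846832-46847131, held 0. The Slc16a3 region held 2 matches and the Slc2a1 region 1. The photoreceptor motif TAATCC, which Crx binds, was found in 7.06% of all promoters and, among the 7 regions matched to 6 of the 9 genes, only at that second Ldha start. Slc2a3, Slc16a7 and Bsg were not matched.

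Levels are given as UMIs per 1000000 UMIs of a class in a library (CPM). Over the 13 classes compared with the mean of the other classes, 63 of the 117 tests of the 9 genes passed an adjusted p under 0.05 (edgeR's quasi-likelihood test with library as a block), 35 higher and 28 lower, against 35.3% of all tests over all genes. Between pairs of retinal compartments, 54 of 90 tests passed, against 37.4% of all tests over all genes. In these tests photoreceptors are the mean of rods and cones, and inner neurons the mean of bipolar, horizontal, amacrine and ganglion nuclei. Endothelium entered them with only the second 5-month library (24 nuclei) and the first 2.5-month library (51 nuclei). Leaving out either of these left only the other for endothelium. Orders of levels are over the 9 retinal classes, which are rods, cones, Müller glia, pigment epithelium, endothelium and the 4 inner neuron classes.

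**Figure D1:**
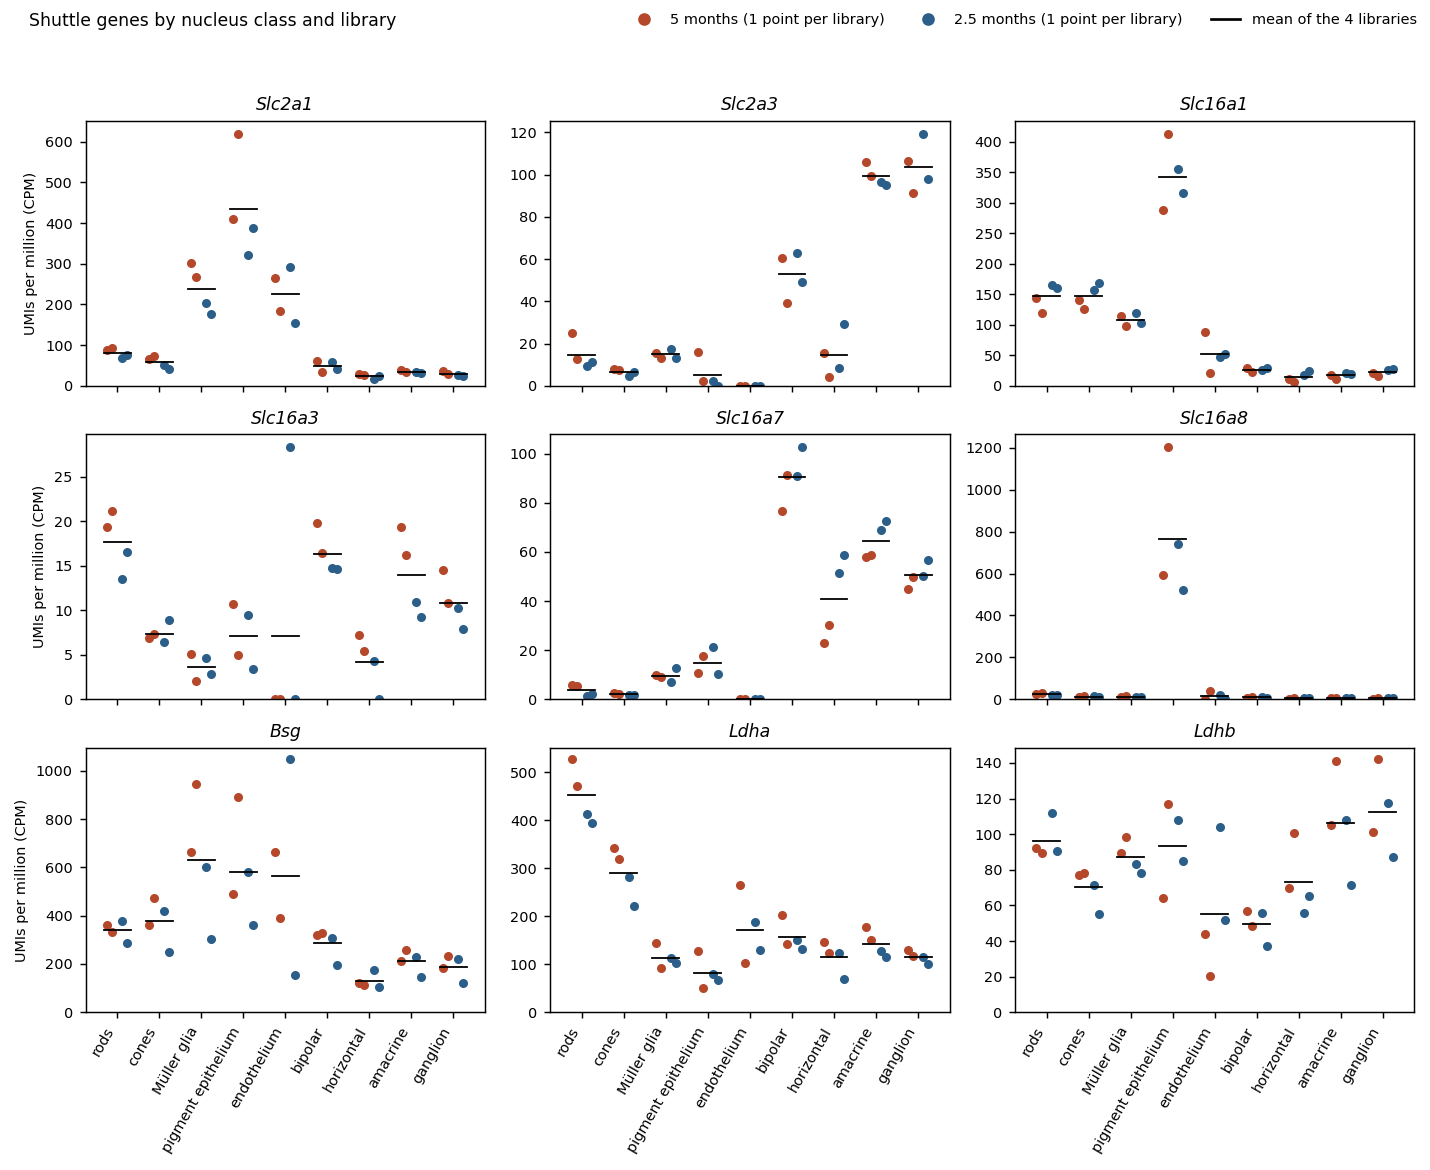
Level of each of the 9 genes (vertical axes, UMIs per 1000000) in 9 nucleus classes (horizontal axes), with 1 point per library, 5-month libraries in red left of 2.5-month libraries in blue, and a line at the mean of the 4 libraries. Slc16a8 stood at 520.3 CPM or more in every pigment epithelial library and at 41.1 CPM or less in every library of the other classes shown, while Ldha was highest in rods.

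RNA levels of the glucose transporters differed between compartments. Among the 9 retinal classes Slc2a1 was highest in pigment epithelium, with 410.2 and 619.5 CPM at 5 months and 322 and 388 CPM at 2.5 months. Müller glia had 301 and 268 CPM at 5 months and 203 and 176 CPM at 2.5 months, and every pigment epithelial library lay above every Müller library. Rods held 88.1 and 92.0 CPM at 5 months and 68.7 and 75.6 CPM at 2.5 months, and cones 65.6 and 72.4 CPM at 5 months and 52.2 and 40.5 CPM at 2.5 months. The inner neurons had the lowest levels, with means between 24.7 CPM in horizontal and 49.3 CPM in bipolar nuclei. Astrocytes, outside these 9 classes, had a mean of 253 CPM on 54 UMIs.

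Slc2a1 was therefore lower in photoreceptors than in Müller glia (log2 fold change -1.99, SE 0.11, adjusted p 2.8e-24) and lower than in pigment epithelium (-2.84, SE 0.14). It was also lower in Müller glia than in pigment epithelium, by a log2 fold change of -0.85 (SE 0.14, adjusted p 9.6e-07). Over inner neurons it was higher in photoreceptors (0.75, SE 0.11), Müller glia (2.74, SE 0.10) and pigment epithelium (3.59, SE 0.14). The rod level of Slc2a1 was 34.2% of the Müller level, whereas the Müller markers stood at 7.04% to 10.96% of their Müller level in rods. In endothelium, the wall of the vessels that bring the glucose, it had 265 and 185 CPM at 5 months and 293 and 156 CPM at 2.5 months, from 52 UMIs in all. Only the second 5-month and first 2.5-month libraries entered the fit, where endothelial Slc2a1 was higher than in inner neurons (2.28, SE 0.43). Without the first 2.5-month library, which held 51 of the 104 nuclei, the difference was 1.503 and missed the threshold. Photoreceptors lay below endothelium by a log2 fold change of -1.53 (SE 0.40), which was -0.67 without that library and lost its call. Pigment epithelium lay above endothelium by 1.31 (SE 0.33). This difference was 0.72 and not called without the second 5-month library, and 2.20 without the first 2.5-month library. In the order of the 9 classes, 6 of the 8 steps between neighbours for Slc2a1 had overlapping library ranges.

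Slc2a3 showed another order of classes, with inner neurons at the top. Ganglion nuclei had 106 and 91.1 CPM at 5 months and 119 and 97.9 CPM at 2.5 months, and amacrine nuclei had 106 and 99.3 CPM at 5 months and 96.4 and 95.1 CPM at 2.5 months. Bipolar nuclei held 60.7 and 39.1 CPM at 5 months and 63.0 and 48.9 CPM at 2.5 months, below every amacrine and ganglion library. Horizontal nuclei differed from the other inner neurons, with a mean of 14.5 ± 10.98 CPM (SD, n = 4), close to the 14.9 ± 2.11 CPM of Müller glia. Rods averaged 14.6 ± 7.06 CPM and cones 6.71 ± 1.39 CPM.

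Against inner neurons, Slc2a3 was lower in photoreceptors (log2 fold change -2.72, SE 0.18, adjusted p 6.2e-20), in Müller glia (-1.88, SE 0.18) and in pigment epithelium (-3.84, SE 0.48, on 5 UMIs in pigment epithelium, and -4.87 without the first 5-month library, which held 3 of them). Photoreceptors were also lower than Müller glia (-0.84, SE 0.21). No Slc2a3 UMI was seen among the 215698 endothelial UMIs, where 3 UMIs would be 13.9 CPM, so that the ganglion level was at least 7.28-fold higher and the amacrine level at least 7.14-fold higher. Slc2a3 overlaps the predicted gene Gm4482 on its own strand, and how reads of overlapping genes were counted is not given in the sources used here.

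Among the lactate carriers, Slc16a1 was highest in pigment epithelium, with 288 and 413 CPM at 5 months and 355 and 316 CPM at 2.5 months. Photoreceptors and Müller glia formed the next tier. Rods had 144 and 119 CPM at 5 months and 166 and 161 CPM at 2.5 months, cones averaged 148 ± 18.7 CPM, and Müller glia 109 ± 10.0 CPM (SD, n = 4). Inner neurons had means between 14.8 CPM in horizontal and 26.7 CPM in bipolar nuclei, and no photoreceptor or Müller library reached down to them.

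Over inner neurons, Slc16a1 was higher in photoreceptors by a log2 fold change of 2.67 (SE 0.09, adjusted p 1.2e-34), in Müller glia by 2.45 (SE 0.11) and in pigment epithelium by 4.09 (SE 0.14). Photoreceptors were lower than pigment epithelium (-1.42, SE 0.12), and so were Müller glia (-1.64, SE 0.13). Photoreceptors passed the threshold over Müller glia at 0.22 (SE 0.10, adjusted p 0.041), a difference that lost its call with DESeq2, with another scaling and when either 2.5-month library was left out. The bipolar level was 18.1% of the rod level and the amacrine level 12.02%, while rod markers stood at 13.2% to 21.7% of their rod level in bipolar and at 7.01% to 15.2% in amacrine nuclei. Ganglion nuclei had 15.7% of the rod level, above the 3.47% to 8.05% of their rod markers, and horizontal nuclei 10.1%, above their 4.62% to 9.66%. The part of free rod RNA in these levels was not tested gene by gene. In pigment epithelium, by contrast, Slc16a1 was at 233% of the rod level, with rod markers at 9.36% to 14.2%. Over endothelium, with 10 UMIs, Slc16a1 was higher in photoreceptors (2.34, SE 0.54), Müller glia (2.12, SE 0.56) and pigment epithelium (3.75, SE 0.47). Without the first 2.5-month library only the second 5-month one was left for endothelium. The photoreceptor and Müller calls were then lost, at 3.17 and 2.95, and the pigment epithelial difference was 4.58.

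Slc16a8 marked the pigment epithelium. It had 591 and 1204 CPM at 5 months and 741 and 520.3 CPM at 2.5 months there, and at most 41.1 CPM in any library of the other 8 retinal classes. Rods came next, with 24.2 and 30.1 CPM at 5 months and 20.03 and 21.5 CPM at 2.5 months. Pigment epithelium exceeded inner neurons by a log2 fold change of 7.01 (SE 0.13, adjusted p 9.1e-46) and endothelium by 5.63 (SE 0.43). Photoreceptors lay below it by a log2 fold change of -5.67 (SE 0.13) and Müller glia by -6.15 (SE 0.16).

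The Slc16a8 level of rods was 3.14% of that of pigment epithelium, and the pigment epithelial markers stood at 3.54% to 5.45% of their own level in rods. In Müller glia Slc16a8 was at 1.34% and the markers at 2.88% to 3.70%, and in cones at 1.58% and 2.16% to 2.81%. In each of these 3 classes the Slc16a8 share lay below the range of the marker shares. Photoreceptors passed the test over inner neurons (1.34, SE 0.18) and rods over cones (0.87, SE 0.22). The rod difference was 1.49 with the rod share of RNA subtracted from cones, which widens it by construction. The pigment epithelial markers were likewise higher in rods than in cones. The part of pigment epithelial RNA in these differences was not tested. With each nucleus thinned to 1000 UMIs, 52.6% of pigment epithelial nuclei held a Slc16a8 UMI, against 2.33% of rods and 0.401% of ganglion nuclei. Without thinning these shares were 92.4%, 2.89% and 2.92%, at median depths of 4402, 1231 and 8694 UMIs. Thinning left out 2666 rods, 2 ganglion and 1 pigment epithelial nuclei that were shallower.

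Slc16a7 had its highest levels in inner neurons among the retinal classes, and in bipolar nuclei it rested largely on 1 cluster. Bipolar nuclei had 76.8 and 91.4 CPM at 5 months and 91.0 and 103 CPM at 2.5 months, and amacrine nuclei 57.9 and 58.9 CPM at 5 months and 68.9 and 72.5 CPM at 2.5 months. Ganglion nuclei averaged 50.5 ± 4.83 CPM and horizontal nuclei 40.8 ± 17.1 CPM (SD, n = 4). Rods stood at 3.62 ± 2.22 CPM and cones at 1.96 ± 0.353 CPM, and every inner neuron library lay above every photoreceptor library.

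Slc16a7 was lower in photoreceptors than in inner neurons (log2 fold change -4.84, SE 0.16, adjusted p 1.6e-34), than in Müller glia (-2.26, SE 0.26) and than in pigment epithelium (-2.89, SE 0.47, on 21 UMIs in pigment epithelium). It was lower in Müller glia than in inner neurons by a log2 fold change of -2.58 (SE 0.15). Endothelium held no Slc16a7 UMI, so that the bipolar level was at least 6.78-fold higher and the horizontal level at least 2.50-fold higher. Immune nuclei had a mean of 118 ± 62.9 CPM on 25 UMIs. Of the 8 steps between neighbours in the order of 9 classes, 3 had overlapping library ranges, the fewest of the 9 genes.

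Slc16a3 had the fewest UMIs of the carriers, with 200 UMIs in rods and 340 in amacrine nuclei. Rods had 19.4 and 21.1 CPM at 5 months and 13.5 and 16.6 CPM at 2.5 months, and bipolar nuclei had 19.8 and 16.4 CPM at 5 months and 14.7 and 14.6 CPM at 2.5 months. Müller glia had 5.12 and 2.02 CPM at 5 months and 4.58 and 2.82 CPM at 2.5 months, below every rod and bipolar library. Photoreceptors exceeded Müller glia by a log2 fold change of 1.54 (SE 0.27, adjusted p 1.8e-06), and Müller glia lay below inner neurons by -1.67 (SE 0.28). The Müller level was 20.6% of the rod level, within the 12.6% to 22.4% at which rod markers stood in Müller glia, and the part of free rod RNA in it was not tested. Between photoreceptors and inner neurons the difference was -0.13 (SE 0.18, adjusted p 0.57). For Slc16a3, all 8 steps between neighbours in the order of classes had overlapping library ranges.

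Bsg was seen in every class, and its libraries differed widely within a class. Müller glia had 664 and 947 CPM at 5 months and 603 and 302 CPM at 2.5 months, and pigment epithelium had 490.1 and 893 CPM at 5 months and 581 and 361 CPM at 2.5 months. Cones averaged 377 ± 96.9 CPM and rods 339 ± 39.3 CPM (SD, n = 4). The lowest class was horizontal nuclei, with 129 ± 31.9 CPM. In all 9 classes shown, the second 2.5-month library had the lowest Bsg level, and all 8 steps between neighbouring classes had overlapping ranges.

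With the library as a block, Bsg was lower in photoreceptors than in Müller glia (log2 fold change -0.97, SE 0.14, adjusted p 2.4e-08) and than in pigment epithelium (-0.84, SE 0.16). Over inner neurons it was higher in photoreceptors (0.63, SE 0.11), Müller glia (1.60, SE 0.13) and pigment epithelium (1.47, SE 0.15). Müller glia and pigment epithelium did not pass the test against each other (0.13, SE 0.18, adjusted p 0.64). The endothelial call over inner neurons (1.18, SE 0.26) changed to -0.0867 without the first 2.5-month library.

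Ldha was highest in rods, with 528 and 472 CPM at 5 months and 414 and 395 CPM at 2.5 months. Cones followed with 342 and 319 CPM at 5 months and 282 and 221 CPM at 2.5 months, and every rod library lay above every cone library. Müller glia had 145 and 93.1 CPM at 5 months and 114 and 102 CPM at 2.5 months. Pigment epithelium had the lowest mean, 81.4 ± 33.4 CPM (SD, n = 4), and inner neurons had means between 116 CPM in ganglion and 157 CPM in bipolar nuclei.

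Ldha was higher in photoreceptors than in Müller glia (log2 fold change 1.48, SE 0.09, adjusted p 4.1e-23), than in pigment epithelium (2.08, SE 0.15), than in endothelium (1.52, SE 0.29, and 2.37 without the first 2.5-month library) and than in inner neurons (1.18, SE 0.06). It was lower in pigment epithelium than in inner neurons (-0.90, SE 0.16). The Müller level was 25.1% of the rod level, and rod markers stood at 12.6% to 22.4% of their rod level in Müller glia. With the rod share of RNA subtracted from each class other than rods, the photoreceptor difference was 3.03 over Müller glia, 3.67 over pigment epithelium and 1.57 over inner neurons. Ldha was highest in rods, so this subtraction lowers it in the other classes by construction and gives no separate evidence.

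Ldhb differed less between compartments. Ganglion nuclei had 102 and 143 CPM at 5 months and 118 and 87.4 CPM at 2.5 months, and rods had 92.1 and 89.3 CPM at 5 months and 112 and 90.5 CPM at 2.5 months. Müller glia averaged 87.3 ± 8.53 CPM and pigment epithelium 93.5 ± 23.9 CPM, with bipolar nuclei lowest among the neurons at 49.7 ± 9.11 CPM (SD, n = 4). All 8 steps between neighbouring classes had overlapping ranges. Photoreceptors passed the test against Müller glia (log2 fold change -0.29, SE 0.10, adjusted p 0.0088) and against inner neurons (-0.25, SE 0.08, adjusted p 0.0036). Both calls were lost without the first 5-month library, with no replicate block and with the rod share of RNA subtracted. The inner neuron call was also lost without the second 5-month library.

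**Figure D2:**
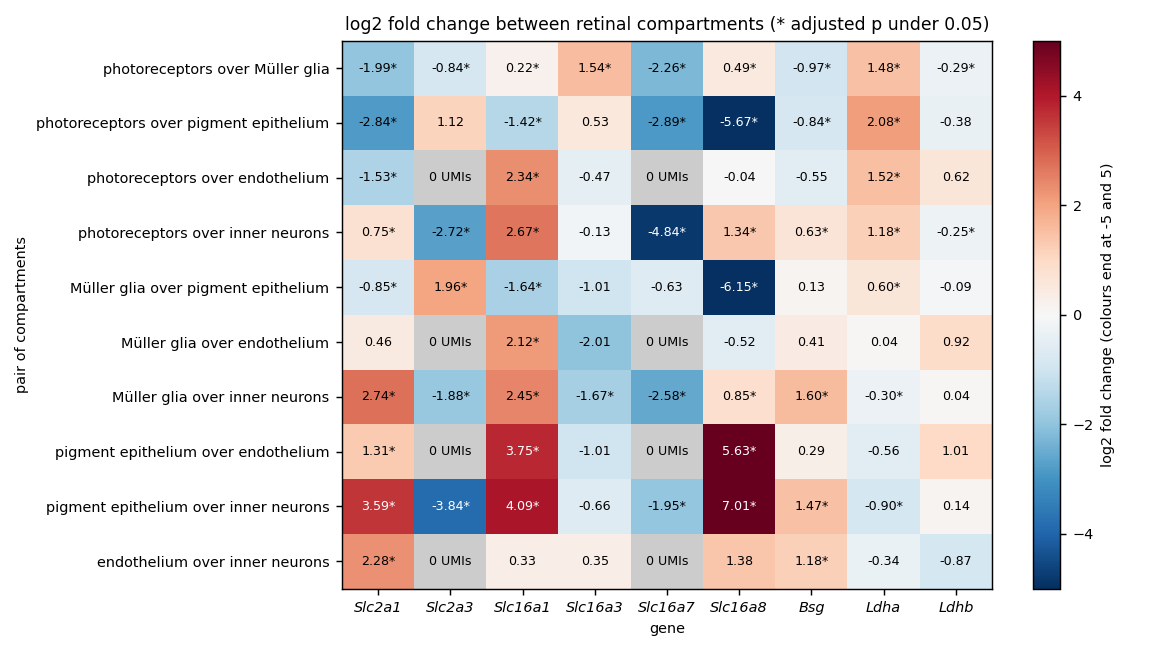
Fitted log2 fold change of each of the 9 genes (horizontal axis) in the 10 pairs of compartments (vertical axis), the first named over the second, with * for an adjusted p under 0.05 and grey where endothelium held 0 UMIs. Slc2a1 and Slc16a1 were high in pigment epithelium in all 4 of its pairs, and Ldha was higher in photoreceptors in all 4 of theirs.

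In counts per pair, photoreceptors over Müller glia had 4 of the 9 genes higher and 5 lower, where 61.7% of all 16006 genes tested were called. Photoreceptors over pigment epithelium had 1 higher and 5 lower (43.8% of all genes called), over endothelium 2 higher and 1 lower (21.5%), and over inner neurons 5 higher and 3 lower (64.9%). Müller glia over pigment epithelium had 2 higher and 3 lower (33.6%), over endothelium 1 higher (17.5%), and over inner neurons 4 higher and 4 lower (55.5%). Pigment epithelium over endothelium had 3 higher (16%) and over inner neurons 4 higher and 3 lower (39.7%). Endothelium over inner neurons had 2 higher and 2 lower (19.8%). The 2 lower, Slc2a3 and Slc16a7, had 0 UMIs in endothelium. The 2 higher, Slc2a1 and Bsg, are given above with their dependence on single libraries. Against endothelium the scaling mattered: of all genes called, 51.1% were higher in photoreceptors and 60.4% higher in Müller glia, and with RLE scaling 37.3% and 50.2%. With so many genes called between classes, the count of called members says little by itself, and the sizes given above carry the description.

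The ratio of Ldha to Ldhb within a class compares the RNA of both subunits in the same nuclei. The ratio's absolute value depends on the lengths of both genes, so only differences between classes are compared. The log2 ratio (with 1 CPM added to each) was 2.51 and 2.39 at 5 months and 1.88 and 2.11 at 2.5 months in rods. In Müller glia it was 0.70 and -0.08 at 5 months and 0.45 and 0.38 at 2.5 months. Rods lay above Müller glia in 4 of 4 libraries, by 1.86 ± 0.43 (SD, n = 4; exact two-sided sign-flip permutation test, p = 0.13, the smallest that 4 libraries allow). The difference was 3.47 with the rod share of RNA subtracted from Müller glia, which lowers the Müller ratio by construction.

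Cones had a mean log2 ratio of 2.02 and lay within 0.38 of the rods in each library. Among inner neurons, bipolar nuclei had a mean of 1.64, against 0.65 in horizontal, 0.44 in amacrine and 0.06 in ganglion nuclei. Pigment epithelium had 0.99 and -1.22 at 5 months and -0.43 and -0.32 at 2.5 months, a mean of -0.24 ± 0.91 (SD, n = 4), and their range takes in the means of ganglion, Müller, amacrine and horizontal nuclei. Rods lay above bipolar nuclei in 4 of 4 libraries by a mean of 0.59, and above pigment epithelium in 4 of 4 by a mean of 2.47.

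**Figure D3:**
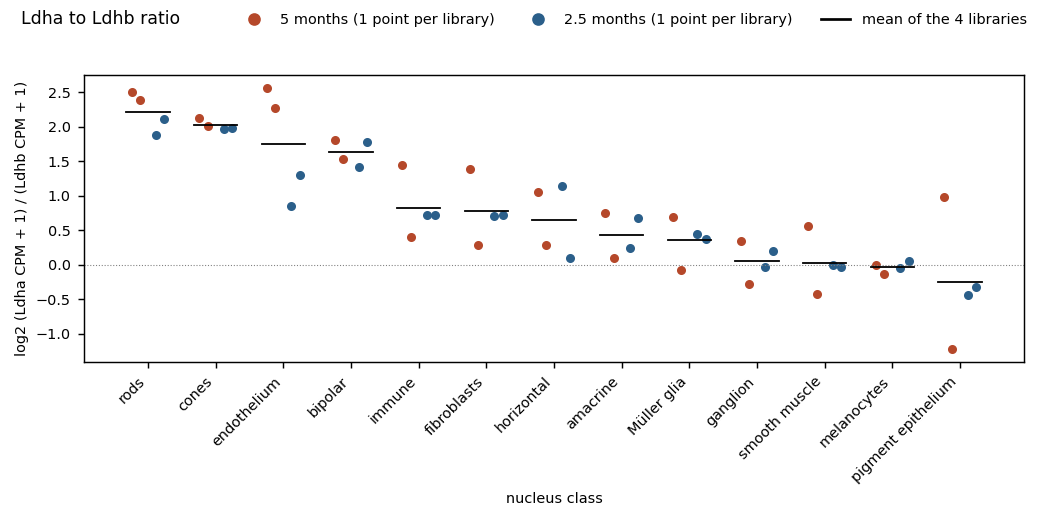
Log2 ratio of Ldha to Ldhb (1 CPM added to each) by nucleus class, with 1 point per library, 5 months in red and 2.5 months in blue, and a line at the mean. Rods and cones had means of 2.22 and 2.02, and the pigment epithelial libraries spread from -1.22 to 0.99.

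Within photoreceptors, 6 of the 9 genes were higher in rods than in cones, where 33.5% of all genes were called. Ldha exceeded cones by a log2 fold change of 0.52 (SE 0.09, adjusted p 1e-06) and Slc16a3 by 1.15 (SE 0.25). The calls of Slc2a1 (0.39, SE 0.15), Slc2a3 (0.73, SE 0.28) and Ldhb (0.36, SE 0.12) were each lost when single libraries were left out. Slc16a1 and Bsg did not pass the test between rods and cones (-0.12, SE 0.11, and -0.23, SE 0.17).

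Among inner neurons, each class was set against the mean of the other 3. Bipolar nuclei had 6 of the 9 genes higher and 1 lower (44.8% of all genes called). Slc16a7 was higher there by a log2 fold change of 0.76 (SE 0.10, adjusted p 2.2e-09), with 584 of its 851 UMIs in 1 of 9 bipolar clusters and 12.9 to 58.0 CPM in the other 8. Bsg was higher by 0.64 (SE 0.14), while Ldhb was lower (-1.11, SE 0.11, adjusted p 1e-12). The bipolar call of Slc16a1 (0.53, SE 0.17) turned to -0.87 with the rod share of RNA subtracted. Horizontal nuclei had 4 lower (28.5%), among them Slc2a3 at -2.33 (SE 0.25, adjusted p 1.1e-11). Amacrine nuclei had 2 higher (29.5%), Slc2a3 at 1.09 (SE 0.12) and Ldhb at 0.31 (SE 0.09). The amacrine call of Ldhb was lost with no replicate block and without the first 5-month library. Ganglion nuclei had 2 higher and 2 lower (43.9%), with Slc2a3 at 1.32 (SE 0.12) and Ldhb at 0.61 (SE 0.09).

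Below the level of classes, levels by cluster are described for Slc16a7, Slc2a1 and Bsg, without a test. Cluster differences of the other genes are not described. Among 9 bipolar clusters, 1 cluster of 382 nuclei led by Grik1, a glutamate receptor of OFF bipolar cells, Gsg1 and Otor held Slc16a7 at 473 CPM (95% Poisson interval 436 to 513, counting error only). Its libraries had 444 and 422 CPM at 5 months and 504 and 491 CPM at 2.5 months. The other 8 bipolar clusters had between 12.9 and 58.0 CPM, so that this cluster held 584 of the 851 bipolar UMIs of Slc16a7.

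Endothelium fell into 2 clusters, of 62 and 42 nuclei, with different pooled levels of Slc2a1, on 46 and 6 UMIs. The first 2.5-month library gave 37 nuclei of the larger cluster and 14 of the smaller. Cluster and library were not tested apart in these sums. The cluster of 62 nuclei with Slco1a4, Cldn5 and Vwf among its leading genes, the first 2 known from barrier-forming vessels, had 364 CPM (interval 267 to 486) of Slc2a1 and 1045 CPM (interval 874 to 1239) of Bsg. The cluster of 42 nuclei with Plvap, the diaphragm protein of leaky vessels, had 67.1 CPM (interval 24.6 to 146) of Slc2a1 and 213 CPM (interval 128 to 332) of Bsg.

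Slc2a1 was also high outside the neural retina. Smooth muscle, led by Myh11 and Acta2 but with 5 of 7 melanocyte markers raised as well, had 490.0 and 619 CPM at 5 months and 393 and 369 CPM at 2.5 months, and exceeded the mean of the other classes by a log2 fold change of 2.77 (SE 0.11). An unnamed cluster of 317 nuclei with pigment genes but without Sox10 or Kit held 1056 CPM (interval 995 to 1121), and another of 772 nuclei led by Mecom and Zic1 held 623 CPM (interval 594 to 653). Melanocytes, with Sox10 and Kit, held 30.9 CPM (interval 20.5 to 44.7). Among fibroblasts, a cluster of 117 nuclei held 248 CPM, against 46.9 and 29.98 CPM in the other 2. For Bsg, an unnamed cluster of 29 nuclei with Car3 and Slc4a11 among its leading genes held 4051 CPM (interval 3692 to 4436).

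**Figure D4:**
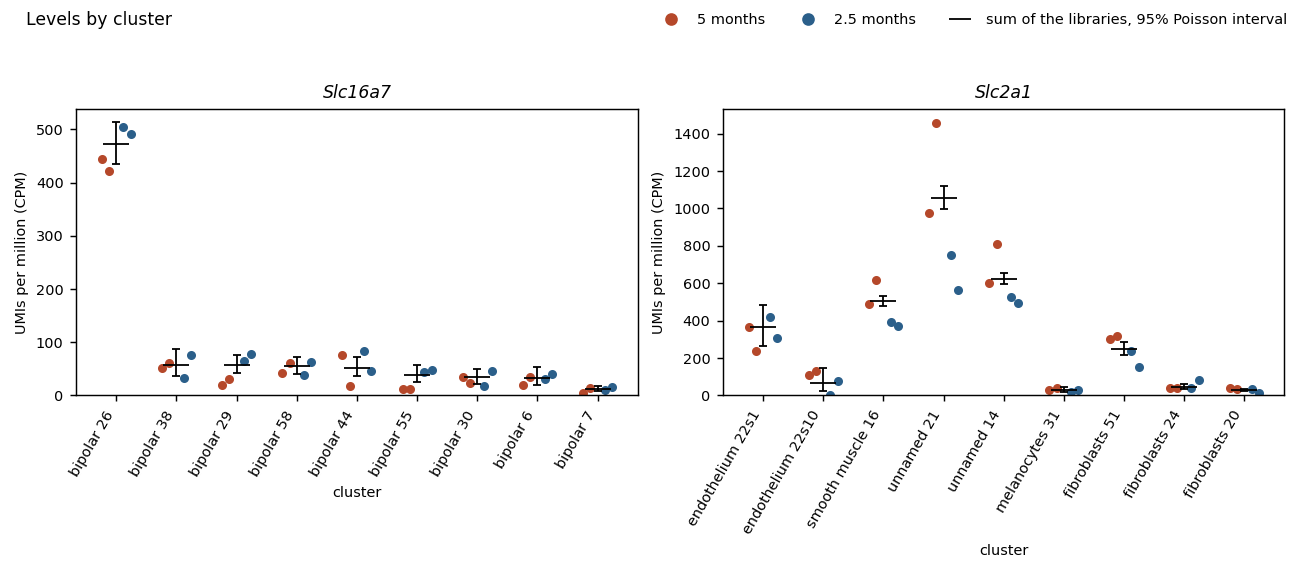
Level (vertical axes, UMIs per 1000000) of Slc16a7 in 9 bipolar clusters and of Slc2a1 in clusters of vessel, muscle, pigment and connective tissue, with 1 point per library, 5 months in red left of 2.5 months in blue, and a line with its 95% Poisson interval for the libraries summed. Bipolar cluster 26 stood at 473 CPM of Slc16a7, and the cluster unnamed 21 at 1056 CPM of Slc2a1.

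The wider pathway was followed in a list of 49 genes, of which 41 were tested between classes. In rods over the mean of the other classes 18 list genes were higher and 6 lower, and 4 of the 9 members were higher, where 49% of all genes were called. The list's median log2 fold change in rods was 0.40, against 0.11 over all genes. Hk2, the hexokinase that traps glucose in glycolytic cells, was at 2.82 (SE 0.08), and Nxnl1 and Nxnl2, which encode the rod-derived cone viability factors, at 2.79 (SE 0.12) and 2.81 (SE 0.10). The basigin splice form that binds the Nxnl1 product cannot be told from other Bsg transcripts in these counts. Lower in rods were Slc2a13, a myo-inositol transporter, at -1.31 (SE 0.31), Emb, the partner protein of MCT2, at -1.30 (SE 0.21), and Txnip, which restrains glucose uptake, at -1.21 (SE 0.31).

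In cones 15 list genes were higher and 8 lower, and 3 members were higher and 1 lower, where 48.2% of all genes were called. The list's median was -0.02 in cones, against 0.13 over all genes. Hk2 was at 3.29 (SE 0.08), Slc16a6, a carrier of ketone bodies in zebrafish, at 2.17 (SE 0.09) and Nxnl2 at 2.14 (SE 0.12). Pdk1, a kinase that restrains pyruvate dehydrogenase, was at -2.71 (SE 0.32), Slc2a13 at -2.34 (SE 0.41) and Slc16a9, a carnitine carrier in humans, at -2.07 (SE 0.48).

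Müller glia had 14 list genes higher and 8 lower, and 4 members higher and 1 lower, where 41.5% of all genes were called. Their list median was -0.12, against 0.14 over all genes. Higher ones included Pdk2, a kinase of the same family as Pdk1, at 2.24 (SE 0.27) and Pcx, which makes oxaloacetate from pyruvate and is known from glia, at 2.10 (SE 0.17). Lower were Slc2a13 at -2.76 (SE 0.45), Slc16a6 at -1.22 (SE 0.18) and Nptn, a relative of basigin, at -0.74 (SE 0.10).

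Pigment epithelium had 10 list genes higher and 4 lower, and 4 members higher and 1 lower, where 26.1% of all genes were called. Its list median was 0.12, against 0.02 over all genes. Higher were Slc16a9 at 5.95 (SE 0.16, 417 CPM), Slc2a12, a further glucose transporter, at 4.38 (SE 0.31) and Pdk4, another of those kinases, at 3.57 (SE 1.08, 5.18 CPM). Lower were Emb at -2.08 (SE 0.50), Nptn at -0.96 (SE 0.13) and Hk2 at -0.86 (SE 0.26).

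Endothelium had 4 list genes higher and 1 lower, and 2 members higher and 1 lower, where 11% of all genes were called. Epas1, the hypoxia-inducible factor typical of endothelium, was at 4.12 (SE 0.28), Txnip at 3.41 (SE 0.59) and Slc16a9 at 2.29 (SE 0.70), with Nptn lower at -1.05 (SE 0.25). Where a gene had no UMI in a class, its fitted value against the mean of the classes depends on the prior count. Slc2a3, Slc16a7 and Slc16a8 had such classes in the libraries that entered the fit, and without endothelium and immune nuclei Slc16a7 stood at -3.33 in rods (SE 0.21), -3.77 in cones (SE 0.25) and -1.11 in Müller glia (SE 0.17) against the mean of the other classes.

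The genes whose class profiles were most like each member were found among 14920 genes by Pearson's r over the 13 classes, which share libraries and depth. For Slc2a1 they included Phgdh (0.931) and Nxn (0.892). For Slc2a3 they were Cyp51 (0.925), Fat3 (0.916) and Prune2 (0.892). For Slc16a8 they were Arl6ip1 (0.970), Ermn (0.967) and Pon1 (0.957). For Ldha the coefficient was 0.964 with A930041C12Rik and 0.954 with Gnb5. Slc16a7 was most like Dopey2 (0.933) and Arsb (0.900), Slc16a1 most like Gm28875 (0.905) and Lrit3 (0.894), and Bsg most like Mut (0.929). Ldhb reached no more than 0.818 (Sema4b), and Slc16a3 no more than 0.883 (Mrpl41).

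Between the ages, none of 83 tests of the 9 genes in 11 classes passed an adjusted p under 0.05 (edgeR's quasi-likelihood test, 2 libraries of 5 months against 2 of 2.5 months), where 0.107% of all tests over all genes did. DESeq2 called 0 of these tests as well, and 14 of the 83 tests had an unadjusted p under 0.05, as did 7.14% of all tests over all genes. Both 5-month libraries lay above both 2.5-month libraries in 16.8% of all tests over all genes and below them in 21.7%, and all classes share the same 4 libraries. Age and Cell Ranger version cannot be told apart in any of these values.

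For the glucose transporter Slc2a1, in 7 of 10 classes both 5-month libraries lay above both 2.5-month libraries (16.8% over all genes), and in the other 3 the ages overlapped. Its log2 fold change was 0.65 in Müller glia (SE 0.17, adjusted p 0.47), 0.60 in cones (SE 0.22), 0.73 in pigment epithelium (SE 0.26) and 0.60 in smooth muscle (SE 0.19). In bipolar nuclei it was -0.07 (SE 0.29). Slc16a1 had values in the other direction, with both 5-month libraries below both 2.5-month libraries in 5 of 10 classes (21.7% over all genes) and none above, as in ganglion nuclei (-0.52, SE 0.23, adjusted p 0.77). Ldha had both 5-month libraries above in 4 of 11 classes (16.8% over all genes), with 0.43 in amacrine nuclei (SE 0.18), and the first 5-month library held its highest level in all 9 classes shown. For Slc16a7, 1 of 8 classes had the 5-month libraries above and 3 had them below.

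Bsg differed most between the ages in Müller glia, at 0.89 (SE 0.29, adjusted p 0.66), where the 5-month libraries had 664 and 947 CPM and the 2.5-month libraries 603 and 302 CPM. Without the first 2.5-month library the Müller difference was 1.48 and passed (adjusted p 0.039), leaving only the library with the lowest Bsg level in all 9 classes at that age. It also passed with no filter on low counts (0.93, adjusted p 0.0015) and with a block of crossed donor numbers (0.95, adjusted p 0.019). The difference of the age effects of Bsg, Müller glia minus rods, was 0.88 (SE 0.22, adjusted p 0.097), where 0.203% of all genes were called. None of the 9 genes passed this test with edgeR or with DESeq2, and 3 had an unadjusted p under 0.05. The difference of Bsg passed with called doublets kept (0.85, adjusted p 0.015) and with no filter on low counts (0.95, adjusted p 0.0022). It did not pass with RLE scaling (0.84, adjusted p 0.13) or with no replicate block (0.83). Leaving out the first 5-month library gave 1.20 and leaving out the second gave 0.56. Leaving out the first 2.5-month library gave 1.19 and leaving out the second gave 0.55. Each of these fits leaves 1 library at an age. Doublets were called in 672 and 784 barcodes at 5 months and in 3 and 1 at 2.5 months, so keeping them changes the 5-month sums almost alone.

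In pigment epithelium, where the libraries held 51 and 99 (5 months), 81 and 44 (2.5 months) nuclei, 3 genes passed between the ages without the first 5-month library, which leaves 1 library at that age, assumed to vary like the others. They were Slc2a1 at 0.99, Bsg at 1.09 and Slc16a8 at 1.11, against 0.73, 0.74 and 0.70 with all 4 libraries. In the second 5-month library these genes stood at 619.5, 893 and 1204 CPM, the highest of the 4 pigment epithelial libraries for each.

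**Figure D5:**
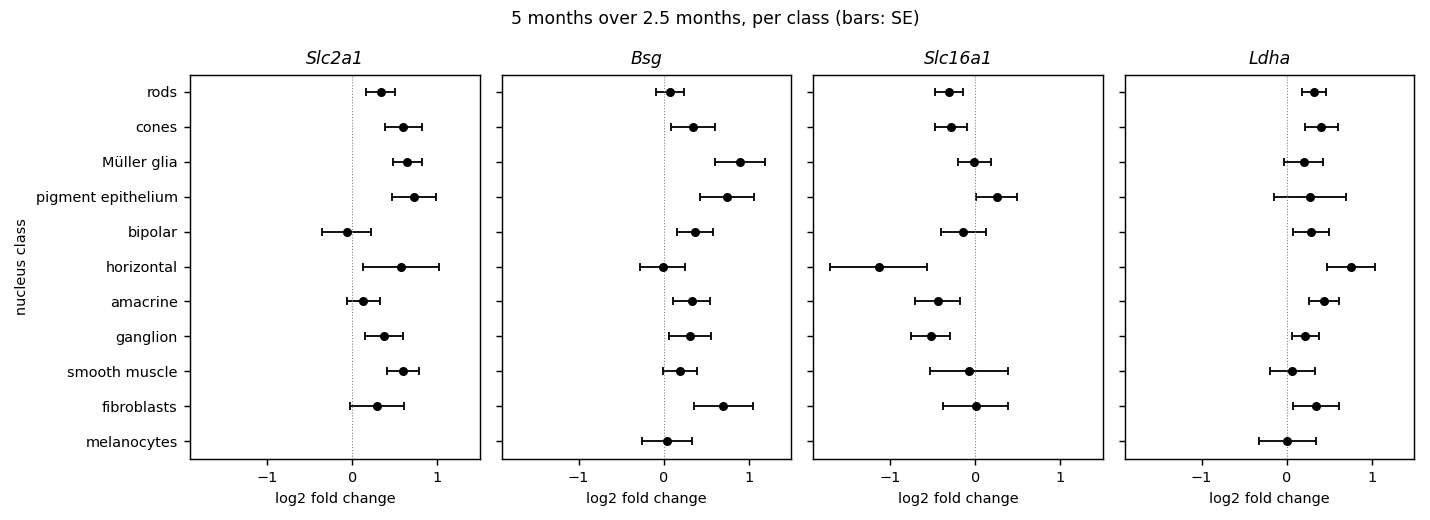
Fitted log2 fold change of 5 over 2.5 months (horizontal axes, bars show the SE) for Slc2a1, Bsg, Slc16a1 and Ldha in each class (vertical axis). None of the values passed an adjusted p under 0.05, and Slc2a1 was at 0.65 in Müller glia while Slc16a1 was at -0.01 there.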

How the data were processed

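Nuclear RNA of 4 mouse left-eye retina libraries was counted by the authors, who deposited unnormalized UMI counts for every gene in every barcode. Per the file headers Cell Ranger was version 4.0.0 for the 5-month and 7.1.0 for the 2.5-month libraries, and per the labels the build was mm10. Whether intron reads were counted is not given in the sources used here, and may differ along the age split. The labels number the donors within each age and say no more of them. The p-values of the age fit measure the spread between these libraries, which may be technical. With the library as a block, p-values measure the spread left after library differences are taken out, which may be technical too.

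Barcodes under 300 detected genes or over 5% mitochondrial UMIs were dropped. Doublets were called with scrublet (expected rate 0.06) and removed: 672 and 784 at 5 months, but 3 and 1 at 2.5 months, where the caller had not worked, so doublets stayed in. Scanpy 1.11.5 gave 75 clusters from 2000 variable genes without the 9 genes and the 49 pathway genes, 30 components, 15 neighbours and resolution 1. A class name needed at least 3 raised markers. Splitting the vascular cluster, asking for Sox10 or Kit in pigment clusters, taking free RNA from the rod profile, the fit without endothelium and immune nuclei, and the crossed pairing were decided after seeing the data.

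Counts were summed per class and library with at least 20 nuclei (endothelium reached this in 2 libraries) and fitted with edgeR 4.0.16 (quasi-likelihood, TMM scaling, filterByExpr) in R 4.3.3. Class contrasts had the library as a block, and the age fit per class had age only. Tests were two-sided, called at a Benjamini-Hochberg adjusted p under 0.05 over all genes tested in a contrast. DESeq2 1.42.0, RLE scaling, no filter, nuclei of at least 1000 UMIs, called doublets kept, at least 10 nuclei, free RNA subtracted, other blocks and leaving out each library were the alternatives. CPM are counts per 1000000 UMIs, and Poisson intervals, like the 3-count floor, reflect counting error alone. In endothelium the class sums held 215698 UMIs in all.

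On simulated counts with known changes the class fit in Müller glia recovered 95% of 2-fold and 100% of 4-fold changes, and the age fit in Müller glia 23% of 2-fold and 96% of 4-fold changes (rods 22% and 99%). Unchanged genes were called 30 times in the class fit and 6 times in each age fit. The changed genes lay above a minimum mean count and all genes had the same simulated spread. The recovery therefore does not extend to members with few UMIs or to endothelium. Named were all 9 genes, up to 3 higher and 3 lower called pathway genes per class for 5 classes, every pathway gene called by age (there was none), and up to 3 genes of most similar class profile per member, among genes with at least 10 CPM in a class; some genes that this rule names are not reported here. The clusters described in the text were chosen after their values were seen. The members and lists were chosen with earlier results of these data known. Gene positions and overlaps came from GENCODE M21 on GRCm38, the assembly of mm10: Slc2a1, Slc16a1, Slc16a7 and Slc16a8 also overlap other annotated genes, and counting there is not given in the sources used here.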

Additional observations from a re-analysis of the deposited data

Results flagged for a closer look

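In 4 of 79 sets of 4 libraries (1 gene in 1 class), 1 library stood far from the other 3; chance alone gives about 1 in 20. Slc2a3 in pigment epithelium had 15.98 CPM in the first 5-month library, on 3 UMIs, and between 0 and 2.49 CPM in the others. Slc16a3 in endothelium had 28.3 CPM in the first 2.5-month library, on 3 UMIs, and 0 UMIs in the others. Bsg in bipolar nuclei had 197 CPM in the second 2.5-month library, on 809 UMIs, and between 306 and 327 CPM in the others. Ldhb in rods had 112 CPM in the first 2.5-month library, on 429 UMIs, and between 89.3 and 92.1 CPM in the others.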

How the results depend on the processing

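Of 1735 alternative values for 140 called differences of the 9 genes, 1591 kept direction and call, 139 kept direction only and 5 reversed. With single libraries left out, Bsg in endothelium ranged from -0.40 (without the first 2.5-month library) to 1.45 over the other classes and from -0.0867 (without the same library) to 1.66 over inner neurons. With free RNA subtracted, Slc16a1 was at 0.81 in ganglion nuclei over the other classes and at -0.87 in bipolar over the other inner neurons, and Ldha at 0.011 in ganglion over the other inner neurons. The count of calls within compartments was 23, but 14 with no replicate block and 15 to 23 with single libraries left out. The age count of 0 became 1 with no filter on low counts, 1 with a replicate block of crossed numbers and 0 to 3 with single libraries left out; it was 0 with the replicate block. The count of the class by age test became 1 with called doublets kept, 1 with no filter and 0 to 1 with single libraries left out. The deviations of same-numbered libraries correlated at -0.106 to 0.013 over 6 classes, so these values show no pairing of the numbers. With 2 libraries per age they cannot settle whether a pairing exists. RLE scaling shifted the median of all genes by over 0.1 (log2) in 9 of 40 contrasts, from -0.27 to 0.28. The 104 endothelial nuclei and the 2 libraries per age limit precision. The causes were not tested.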
